A study of Mus musculus with 8 samples.

Results

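The genes that copy DNA and make its building blocks were compared between a pair of cell populations sorted from mouse bone marrow. The set holds 45 gene symbols chosen by their role in S phase, the stage of the cell cycle in which the genome is duplicated. All 45 were found among the 18790 rows with a gene symbol, and all 45 passed the filter on low counts that left 11965 genes for testing. The filter could not have selected the members for a difference, because none was lost to it.

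Femoral marrow of untreated C57BL/6 mice carrying a Csf1r-EGFP transgene was sorted by flow cytometry. In that transgene the promoter of the macrophage growth factor receptor Csf1r drives a green fluorescent protein, so the reporter is made in cells in which this promoter is active. One population, named CD11b+ below, carried the myeloid integrin CD11b with F4/80 and VCAM1, which mark macrophages among other cells, lacked Ly6G of neutrophils and had little reporter signal. The other, named CD11b-, carried F4/80, VCAM1 and the reporter without CD11b. Each population had 4 biological replicates, and all 8 SmartSeq2 libraries (full-length cDNA made from little RNA) come from animals of the same strain and transgene. The labels give neither the age of the mice nor whether marrow was pooled. The labels put the word macrophage in quotation marks, and the submitters' title describes both populations as other cells that carry fragments of macrophages.

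Libraries held 36604660 to 47951234 counts in CD11b+ and 27462607 to 35160747 in CD11b-, and the lowest count of any member in any library was 273, for Orc1. Cell type markers differed between the sorts. Of 18 resident macrophage markers 4 were higher, 2 lower and 12 not called in CD11b+. Over all tested genes 14.6% were called higher in CD11b+ and 15.0% lower. Summed macrophage levels were 1828 to 2141 CPM (counts scaled to a common library total) in CD11b+ and 1468 to 1907 CPM in CD11b-. The log2 fold change (CD11b+ over CD11b-) was negative for 12 of the 18 and positive for 6, with a median of -0.45. Axl, Cd68, Cd163, Mrc1, C1qa, Spic and Cd5l were among the negative ones and were not called. Levels within this list ranged widely. Apoe averaged 707 CPM in CD11b+ and 739.8 CPM in CD11b-, Vcam1 393 and 107 CPM, Slc40a1 384 and 248 CPM, Adgre1 (F4/80) 91.1 and 22.9 CPM and C1qb 77.1 and 102 CPM. Csf1r averaged 85.2 CPM in CD11b+ and 35.8 CPM in CD11b-, and was called higher with Vcam1, Slc40a1 and Adgre1. Its mRNA was thus higher in the sort with little reporter signal, and the reason was not tested. The 2 called lower were C1qc at 54.3 and 97.1 CPM and Hmox1 at 39.5 and 89.4 CPM. At the low end Mertk averaged 3.34 and 5.16 CPM, Timd4 2.69 and 2.43 CPM and Siglec1 1.77 and 0.856 CPM. Markers of primary granules were higher in CD11b+ for 7 of 7 genes, at 59060 to 86403 CPM in CD11b+ and 490 to 6844 CPM in CD11b-. Neutrophil markers were higher for 8 of 10 genes (67060 to 94144 CPM in CD11b+, 140 to 733 CPM in CD11b-) and eosinophil markers for 3 of 6 (6604 to 18758 and 71 to 468 CPM). Erythroid markers were lower in CD11b+ for 17 of 17 genes, at 789 to 1340 CPM in CD11b+ and 35300 to 47225 CPM in CD11b-. B progenitor markers were lower for 10 of 11 tested genes (54 to 136 CPM in CD11b+, 1236 to 2594 CPM in CD11b-), and Vpreb2 had no count in CD11b+. Stem and progenitor markers were higher for 2 of 7, at 546 to 702 CPM in CD11b+ and 168 to 527 CPM in CD11b-. The part of these cell type differences in the replication gene differences described below was not tested. In bulk libraries such as these, fewer dividing cells and less of a transcript per dividing cell cannot be told apart.

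Replication starts when the origin recognition complex and its partners CDC6 and CDT1 load the MCM2-7 helicase onto DNA. CDC45 and the GINS complex then switch the helicase on, DNA polymerases copy both strands on sliding clamps of PCNA, and FEN1 and LIG1 join the pieces of the lagging strand. Nucleotides come from ribonucleotide reductase and the thymidylate enzymes, and many of these genes are known targets of E2F transcription factors. In marrow, dividing precursors of red cells, granulocytes and B cells all use this machinery.

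Replication genes were present in both sorts and lower in CD11b+. Of the 45 members 26 fell, none rose and 19 were not called. Calls use the quasi-likelihood test of edgeR with p-values adjusted over all 11965 genes (Benjamini-Hochberg, 0.05), which gave every adjusted p printed for a gene. The 26 are 57.8% of the members, against 15.0% of all tested genes called lower in CD11b+ and 29.7% called in either direction. By role the share called lower ran from 22.2% (9 polymerase members) to 100% (4 licensing members), against 15.0% of all tested genes. No member was higher at an unadjusted p of 0.05 either, nor by DESeq2 or limma, against 14.6% of all tested genes called higher. The median member had a log2 fold change of -0.69 (CD11b+ over CD11b-), against -0.01 over all tested genes, and 12 of the 26 fell at least 2-fold. In 26 members all 4 CD11b+ libraries lay below all 4 CD11b- libraries in CPM (57.8% of members, against 18.4% of tested genes), of which 25 were called. Gins1 was called although its groups overlap, and Pold3 was not called although they do not. Together the members took 11069, 11128, 10765 and 11929 CPM in CD11b+ replicates 1 to 4, against 21713, 22076, 21286 and 25465 CPM in CD11b- replicates 1 to 4. Every CD11b+ sum lay below every CD11b- sum.

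**Figure D1:**
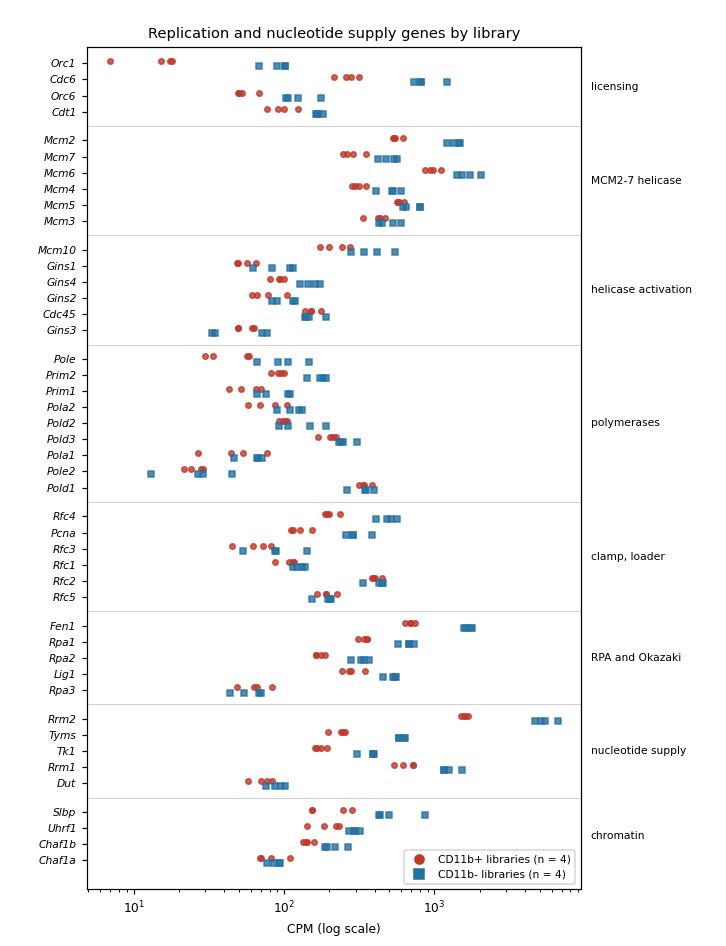
Level of each of the 45 members in each library, in CPM on a logarithmic axis, grouped by role and ordered within a role by fold change. Red circles are the 4 CD11b+ libraries and blue squares the 4 CD11b- libraries. In 26 members all circles lie left of all squares, with the widest separation at Orc1, Cdc6 and Rrm2.

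Promoter windows of 4 members were printed to show the start regions of the gene with the lowest fold change (Orc1), the one with the highest (Rpa3) and the pair with the highest mean CPM (Rrm2 and Mcm6). The sequences are RefSeq windows on GRCm38.p6 from 250 bases before to 50 after the gene start, matched by symbol, read 5′ to 3′ in the sense of the gene. Orc1 lies at chr4:108579204-108579503 on the plus strand, Rpa3 at chr6:8259092-8259391 on the minus strand, Rrm2 at chr12:24708004-24708303 on the plus strand and Mcm6 at chr1:128359656-128359955 on the minus strand. Capitals mark letters of the E2F motif (TTTCCCGC, TTTGGCGC, TTTCGCGC or TTTGCCGC), of CCAAT and of the cell cycle homology region TTTGAA, each searched on both strands.
Orc1: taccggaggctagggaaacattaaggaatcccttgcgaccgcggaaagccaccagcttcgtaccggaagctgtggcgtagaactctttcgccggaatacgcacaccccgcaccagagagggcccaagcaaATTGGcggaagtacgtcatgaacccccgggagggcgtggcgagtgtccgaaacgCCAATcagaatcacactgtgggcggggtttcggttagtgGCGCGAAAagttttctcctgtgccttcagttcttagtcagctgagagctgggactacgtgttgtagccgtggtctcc
Rpa3: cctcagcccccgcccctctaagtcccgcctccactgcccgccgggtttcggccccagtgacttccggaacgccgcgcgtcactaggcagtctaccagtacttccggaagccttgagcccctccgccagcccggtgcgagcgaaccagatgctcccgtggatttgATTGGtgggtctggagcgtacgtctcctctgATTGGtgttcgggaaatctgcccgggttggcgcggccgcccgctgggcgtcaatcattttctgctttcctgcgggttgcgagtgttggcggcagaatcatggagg
Rrm2: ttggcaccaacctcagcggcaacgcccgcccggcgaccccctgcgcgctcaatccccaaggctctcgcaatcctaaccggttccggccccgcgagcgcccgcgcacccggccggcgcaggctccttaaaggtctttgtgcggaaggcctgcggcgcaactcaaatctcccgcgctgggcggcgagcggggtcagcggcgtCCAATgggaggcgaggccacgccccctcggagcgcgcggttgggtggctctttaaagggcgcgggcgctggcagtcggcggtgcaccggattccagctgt
Mcm6: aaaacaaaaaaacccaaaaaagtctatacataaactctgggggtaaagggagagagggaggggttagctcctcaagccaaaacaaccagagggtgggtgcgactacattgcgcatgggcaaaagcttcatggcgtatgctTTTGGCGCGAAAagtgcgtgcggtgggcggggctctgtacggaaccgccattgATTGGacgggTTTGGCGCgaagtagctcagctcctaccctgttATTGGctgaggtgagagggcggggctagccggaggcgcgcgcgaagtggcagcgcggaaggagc
Orc1 had 1 E2F match and 2 CCAAT matches, Mcm6 had 3 E2F matches, of which a pair overlap each other, and 2 CCAAT matches, Rrm2 had 1 CCAAT match and Rpa3 had 2. TTTGAA was in none of the 4 windows. Of the 38 members with a window, 13 (34.2%) held an E2F match, against 2.26% of all 32851 windows of the same length and 4.23% of the 9159 windows of tested genes. CCAAT stood in 24 of 38 (63.2%), against 37.4% of all windows and 39.3% of those of tested genes. TTTGAA stood in 4 (10.5%), against 17.9% of all windows and 12.3% of those of tested genes. By outcome, an E2F match stood in 5 of 21 members called lower (23.8%) and in 8 of 17 members not called (47.1%). These are matches of letters only, and the shares were not tested.

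All 4 licensing members, ORC subunits and loading factors, were lower in CD11b+, with a median log2 fold change of -1.43, the lowest of the 8 role groups. Orc1, the largest subunit of the origin recognition complex, was at 15.1, 6.91, 17.9 and 17.3 CPM in CD11b+ libraries, against 101, 89.7, 68.4 and 102 CPM in CD11b- libraries. Every CD11b+ library lay far below every CD11b- library, with replicate 2 the lowest of CD11b+ and replicate 3 the lowest of CD11b-. The difference was 6.13-fold (log2 -2.62, SE 0.31, adjusted p = 0.00015), the lowest fold change of the 45. Cdc6, which joins ORC to load the helicase, was 3.24-fold lower at 267 ± 42 CPM in CD11b+, against 892 ± 216 in CD11b- (SD, n = 4 each; adjusted p = 0.000121). Orc6, the smallest ORC subunit, was 2.24-fold lower at 55.0 ± 8.65 and 127 ± 34.3 CPM (adjusted p = 0.00225). Cdt1, the partner of CDC6 in loading, moved least at 76.8, 100.5, 91.7 and 124 CPM in CD11b+, against 166, 163, 182 and 169 CPM in CD11b-. Its groups do not overlap, and it was 1.69-fold lower (log2 -0.76, SE 0.17, adjusted p = 0.00745).

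Geminin, encoded by Gmnn, binds CDT1 and blocks a second round of loading. Gmnn was at 118, 102, 97.9 and 84.5 CPM in CD11b+, against 199, 196, 177 and 253 CPM in CD11b-, so it was 1.99-fold lower (adjusted p = 0.00108). The factor and its inhibitor were thus lower in the same libraries. The ratio of Cdt1 to Gmnn counts was 0.648, 0.987, 0.937 and 1.47 in CD11b+ libraries, against 0.835, 0.833, 1.03 and 0.667 in CD11b-, and the groups overlap. The mean log2 ratio differed by 0.22 (two-sided exact permutation test, p = 0.457, also 0.457 adjusted over the 4 ratios tested).

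Of the 20 other licensing and origin firing genes, 8 were lower, 2 higher and 10 not called, with a median log2 fold change of -0.49. Over all tested genes 15.0% were called lower, against 40% here, and 14.6% were called higher. The lowest was cyclin A2 (Ccna2), the partner of CDK2 in S phase, at 192 ± 38.3 CPM in CD11b+, against 945 ± 161 in CD11b- (log2 -2.26, adjusted p = 3.78e-05). Its kinase Cdk2 was at 278 ± 21.3 and 271 ± 20.9 CPM (log2 0.08, adjusted p = 0.682). Those higher were Cdc25a, the phosphatase that activates CDK2, at 144 ± 39.7 CPM in CD11b+, against 51.8 ± 14.9 in CD11b- (log2 1.52, adjusted p = 0.00132), and Mcmbp, which encodes an MCM-binding protein, at 499 ± 22.1 and 210.1 ± 49.8 CPM (log2 1.29, adjusted p = 0.000313). The kinase genes Cdc7 (172 ± 39.2 and 125 ± 41.6 CPM) and its activator Dbf4 (62.2 ± 5.30 and 105 ± 14.9 CPM) differed in call, Cdc7 not called at log2 0.48 and Dbf4 lower at log2 -0.72 (adjusted p = 0.243 and 0.0121).

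The 6 subunits of the MCM2-7 ring, the motor that unwinds DNA, differed in call. Mcm2, Mcm4, Mcm6 and Mcm7 were lower in CD11b+, and Mcm3 and Mcm5 were not called. Mcm2 was at 526, 619, 535 and 549.8 CPM in CD11b+ and 1469.6, 1463, 1204 and 1357 CPM in CD11b-. These groups stand well apart, and the difference was 2.39-fold (log2 -1.26, SE 0.13, adjusted p = 5.47e-05). Mcm3 was at 434, 422, 337 and 471 CPM in CD11b+, against 599.7, 429, 445 and 526 CPM in CD11b-. Its groups overlap, since CD11b- replicates 2 and 3 lie among the CD11b+ libraries, and log2 was -0.22 (95% interval -0.56 to 0.12, adjusted p = 0.335). Mcm5 was similar at 587 ± 30.4 and 718 ± 100.1 CPM (log2 -0.25, 95% interval -0.53 to 0.04, adjusted p = 0.190). The other 3 were 1.61-fold (Mcm4), 1.67-fold (Mcm6) and 1.70-fold (Mcm7) lower, with adjusted p = 0.00716, 0.00322 and 0.00301. The difference between the Mcm2 and Mcm3 fold changes was not tested.

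Subunit levels can be compared only per length, in CPM per kb of exon. Mcm6 led in both sorts, at 209 ± 21.8 CPM per kb in CD11b+ and 359 ± 57.3 CPM per kb in CD11b-. Mcm2 held the second level in CD11b-, at 197 ± 17.8 CPM per kb, but in CD11b+ its level of 80.2 ± 6.09 CPM per kb lay below those of Mcm5 (147 ± 7.6), Mcm3 (111 ± 15.1) and Mcm4 (86.8 ± 8.42). The levels of Mcm2 and Mcm4 in CD11b+ and of Mcm2 and Mcm5 in CD11b- lay within their spread. Mcm7 was lowest in both, at 64.6 ± 10.3 and 113 ± 14.6 CPM per kb. These levels rest on the union of annotated exons, so the isoforms in use would shift them.

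**Figure D2:**
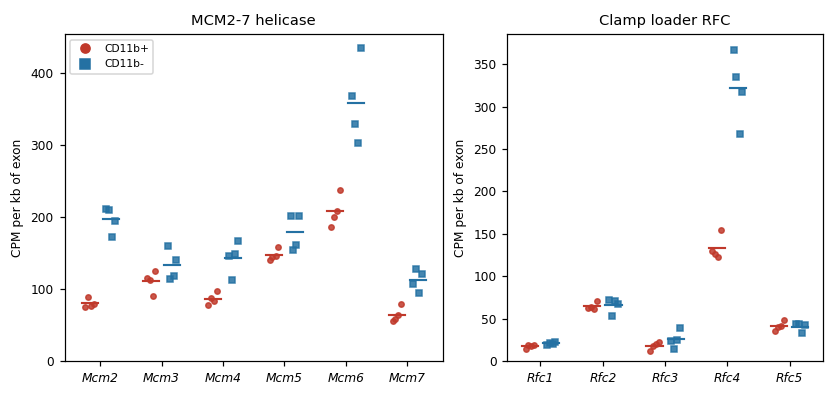
Levels of the MCM2-7 subunits (left) and of the clamp loader subunits (right) in CPM per kb of exon, on axes that start at 0. Red circles are the 4 CD11b+ libraries and blue squares the 4 CD11b- libraries, with a line at each mean. Mcm2 and Rfc4 stand apart between the sorts, at 80.2 against 197 and 133 against 322 CPM per kb, while Mcm3, Rfc2 and Rfc5 overlap.

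Of the 6 helicase activators, Mcm10, Gins1 and Gins4 were lower and Gins2, Cdc45 and Gins3 were not called, with a median log2 fold change of -0.51. Mcm10, an initiation factor that helps the helicase start, was at 276, 174, 241 and 199 CPM in CD11b+, against 413, 543, 339 and 279.9 CPM in CD11b-. The groups only just part, between 276 and 279.9 CPM, and the 1.72-fold difference (log2 -0.78, SE 0.23, adjusted p = 0.0259) was lost without any one of CD11b+ replicates 2, 3 or 4 or CD11b- replicates 1 or 2 (adjusted p from 0.0537 to 0.0776). Without CD11b- replicates 1 and 2 together, the pair highest in Mpo of their sort, it was lost too, at a log2 of -0.46 (adjusted p = 0.192; from 0.00573 to 0.192 over the 16 alternatives). Gins4 was 1.60-fold lower at 91.8 ± 8.13 and 151 ± 20.2 CPM (adjusted p = 0.00457). Gins1 was 1.62-fold lower at 55.1 ± 7.77 and 92.3 ± 24.4 CPM (adjusted p = 0.0312), a call that any one of CD11b+ replicates 1, 2 or 3 or CD11b- replicates 1 or 2 decides (adjusted p from 0.0661 to 0.0935 without it; 0.00719 to 0.275 over all alternatives). The log2 fold change of Gins1 was -0.37 without that pair (adjusted p = 0.275). Gins1 also lost its call without the filter (0.0518). With the replicate number as a block Gins1 (0.0547) and Mcm10 (0.0507) lost theirs.

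The GINS complex holds 4 subunits, of which Gins3 had the highest fold change of the activators. It was at 62.6, 49.0, 49.5 and 61.1 CPM in CD11b+, against 71.4, 33.0, 34.9 and 77.0 CPM in CD11b-. The CD11b- libraries fall on both sides of the CD11b+ ones, with replicates 1 and 4 high and 2 and 3 low (log2 0.09, 95% interval -0.56 to 0.75, adjusted p = 0.855). Cdc45, the partner that completes the active helicase, was at 154 ± 15.4 CPM in CD11b+, against 154 ± 23.8 in CD11b- (log2 0.03, 95% interval -0.36 to 0.41, adjusted p = 0.935). Gins2 was at 77.5 ± 19.6 and 101 ± 17.6 CPM (log2 -0.35, adjusted p = 0.246).

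Polymerase genes were mostly not called. Of the 9 members, Pole and Prim2 were lower and 7 were not called, with a median log2 fold change of -0.38. The share called lower was 22.2%, against 15.0% of all tested genes. Pole, the catalytic subunit of the leading strand polymerase, was at 57.1, 58.2, 33.8 and 30.0 CPM in CD11b+, against 106, 146, 66.1 and 91.1 CPM in CD11b-. The groups do not overlap, but each spreads widely, and the 2.20-fold difference (log2 -1.14, SE 0.30, adjusted p = 0.0182) was lost without CD11b+ replicate 3 (adjusted p = 0.0570), CD11b- replicate 2 (0.054) or the Mpo pair (0.147). Over the 16 alternatives its adjusted p was 0.00244 to 0.147. Prim2, the large primase subunit that helps lay the RNA primer, was 1.82-fold lower at 92.2 ± 7.97 and 172 ± 20.2 CPM (adjusted p = 0.00215). Its partner Prim1, the catalytic subunit, was at 57.6 ± 12.5 and 89.4 ± 21.3 CPM (log2 -0.59, adjusted p = 0.0739; 0.0432 without CD11b- replicate 2, and 0.0432 to 0.185 over all alternatives).

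Pold1, the catalytic subunit of the main lagging strand polymerase, had the highest fold change of this group. It was at 340.2, 383, 335 and 314 CPM in CD11b+, against 263, 349.5, 398 and 347 CPM in CD11b-. The CD11b+ libraries lie within the CD11b- range, and log2 was 0.05 (95% interval -0.34 to 0.43, adjusted p = 0.886). Its accessory subunits Pold2 (log2 -0.38, adjusted p = 0.207) and Pold3 (log2 -0.30, adjusted p = 0.162) were not called, nor were Pola1 and Pola2 of the primase-bound polymerase (log2 -0.28 and -0.48, adjusted p = 0.584 and 0.154) and Pole2 (log2 -0.11, adjusted p = 0.870). Pola1 varied most of all members among CD11b+ libraries, with a coefficient of variation of 41.8%, and Pole2 among CD11b- libraries, with 45.9%. The median over the members was 13.3% in CD11b+ and 15.6% in CD11b-.

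The clamp fell while most of its loader was not called. Pcna, the sliding clamp that tethers polymerases, was 2.33-fold lower at 127 ± 19.0 CPM in CD11b+, against 304 ± 53.4 in CD11b- (adjusted p = 0.00034). Of the 5 subunits of the loader RFC only Rfc4 was called, at 199, 193, 188 and 236 CPM in CD11b+, against 563, 514, 409.8 and 486 CPM in CD11b-. These groups are far apart, and Rfc4 was 2.35-fold lower (log2 -1.23, SE 0.13, adjusted p = 7.87e-05). Rfc5 was at 166, 190.4, 191 and 225 CPM in CD11b+, against 206, 202, 154 and 196 CPM in CD11b-, with overlapping groups (log2 0.07, 95% interval -0.23 to 0.37, adjusted p = 0.747). Rfc2 was at 408 ± 29.1 and 416 ± 55.5 CPM (log2 0.01, 95% interval -0.31 to 0.33), Rfc1 at 106 ± 13.7 and 126 ± 10.3 CPM (log2 -0.21) and Rfc3 at 65.4 ± 15.6 and 92.7 ± 36.4 CPM (log2 -0.46), with adjusted p = 0.977, 0.356 and 0.289. Per length Rfc4 led the loader in both sorts, at 133 ± 14.3 CPM per kb in CD11b+ and 322 ± 41.8 CPM per kb in CD11b-. Rfc4 shares 194 exon bases with Eif4a2, Rfc2 shares 952 with Lat2 and Rfc5 shares 499 with Wsb2, each on the opposite strand, and the libraries do not mark strand.

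Single-strand binding and lagging strand genes fell, with 1 exception. Of the 5 members 4 were lower in CD11b+ and Rpa3 was not called, and the median log2 fold change was -0.88. Fen1, the nuclease that trims Okazaki fragments, was at 698, 692, 639.9 and 743 CPM in CD11b+, against 1582, 1750, 1769 and 1617 CPM in CD11b-. The libraries of each sort lie close together and the sorts far apart, a 2.36-fold difference (log2 -1.24, SE 0.13, adjusted p = 8.82e-05). Lig1, the ligase that seals the fragments, was 1.78-fold lower at 284 ± 42.3 and 523 ± 45.4 CPM (adjusted p = 0.00121). The single-strand binding subunits Rpa1 and Rpa2 fell too, Rpa1 by a factor of 1.91 (adjusted p = 0.000867) and Rpa2 by a factor of 1.84 (adjusted p = 0.000374). The smallest subunit Rpa3 was at 62.7, 48.8, 66.3 and 83.1 CPM in CD11b+, against 68.2, 54.2, 43.7 and 70.4 CPM in CD11b-. Its groups overlap throughout (log2 0.19, 95% interval -0.29 to 0.66, adjusted p = 0.572), and this was the highest fold change of all 45 members. Per length the 3 RPA genes stood at 61.2 ± 3.82 (Rpa1), 57.9 ± 3.95 (Rpa2) and 57.4 ± 12.4 (Rpa3) CPM per kb in CD11b+. In CD11b- they stood at 119.6 ± 12 (Rpa1), 109.5 ± 12.3 (Rpa2) and 52.0 ± 11 (Rpa3) CPM per kb, so Rpa3 lay below its partners there.

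Of 18 other fork progression genes 8 were lower, 1 higher and 9 not called, with a median log2 fold change of -0.62. The share called lower was 44.4%, against 15.0% of all tested genes, of which 14.6% were higher. Topoisomerase gene Top2a was lowest at 638 ± 81.2 CPM in CD11b+, against 1793 ± 276 in CD11b- (log2 -1.46, adjusted p = 0.000234). Rnaseh2c, a subunit of the nuclease that removes RNA from DNA, was higher at 116 ± 6.79 and 63.0 ± 15.5 CPM (log2 0.92, adjusted p = 0.00444). The catalytic subunit of the same enzyme, Rnaseh2a, was lower at 35.4 ± 9 and 80.0 ± 15.8 CPM (log2 -1.13, adjusted p = 0.00429). Chtf8, a subunit of an alternative clamp loader, had the highest fold change but was near the floor, at 1.67 ± 1.08 and 0.608 ± 1.14 CPM (adjusted p = 0.545; called higher without CD11b- replicate 1, adjusted p = 0.0461, and 0.0461 to 0.776 over its 15 alternatives).

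**Figure D3:**
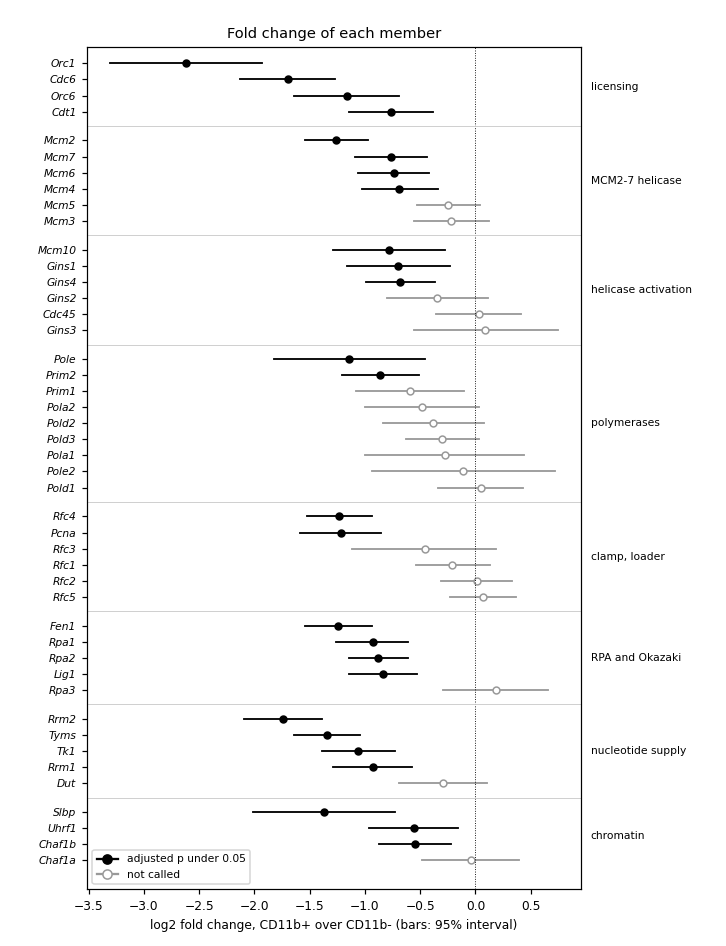
Fold change of each member on the log2 scale, CD11b+ over CD11b-, with its 95% interval, grouped by role. Filled black points are the 26 members called lower and open grey points the 19 not called. Licensing and nucleotide supply genes reach furthest left, to -2.62 for Orc1 and -1.74 for Rrm2, and 6 members lie right of 0.

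Nucleotide supply fell in 4 of 5 members, with a median log2 fold change of -1.06. Rrm2, the small subunit of ribonucleotide reductase that is made in S phase, was at 1587, 1676, 1508 and 1570.3 CPM in CD11b+, against 4669, 5412, 5097 and 6662 CPM in CD11b-. Per length it was the most abundant member in both sorts (572 ± 25 CPM per kb in CD11b+ and 1970.3 ± 309 CPM per kb in CD11b-), the CD11b+ libraries varied little, and CD11b- replicate 4 was highest. The difference was 3.35-fold (log2 -1.74, SE 0.16, adjusted p = 2.76e-05), and Rrm2 made up 14.1% of the members' summed CPM in CD11b+ and 24.1% in CD11b-. The large subunit Rrm1 was at 725, 614, 539 and 724 CPM in CD11b+, against 1157, 1156, 1252 and 1529 CPM in CD11b-, so it was 1.91-fold lower (log2 -0.93, SE 0.16, adjusted p = 0.00159).

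Counts of Rrm2 per count of Rrm1 were 2.19, 2.73, 2.80 and 2.17 in CD11b+ libraries, against 4.04, 4.68, 4.07 and 4.36 in CD11b- libraries. All CD11b+ ratios lie below all CD11b- ratios, with a mean log2 difference of -0.80. The two-sided exact permutation test gave p = 0.0286, the smallest that 4 against 4 libraries allow, and 0.0571 adjusted over the 4 ratios, so this difference did not pass the correction (0.0381 without CD11b- replicate 4, and 0.0381 to 0.133 over the alternatives). The log2 difference was -0.79 without CD11b- replicate 4 and -0.78 without the Mpo pair. Under each alternative the unadjusted p stayed the smallest possible, so this range follows from the number of splits and the other ratios. Rrm2b, the alternative small subunit that p53 induces, was at 4.92, 9.19, 3.4 and 3.07 CPM in CD11b+, against 9.12, 6.83, 1.01 and 20.3 CPM in CD11b-. The groups overlap (log2 -0.77, 95% interval -2.62 to 1.08, adjusted p = 0.552). Counts of Rrm2 per count of Rrm2b, not scaled by length, were 323, 182, 444 and 511 in CD11b+ and 512, 793, 5026 and 328 in CD11b-. The mean log2 ratio differed by -1.41, and by -0.59 without CD11b- replicate 3, where Rrm2b was lowest, and -1.9 without CD11b- replicate 4, where it was highest. This difference did not pass either (exact permutation p = 0.114, adjusted p = 0.152; 0.343 without CD11b- replicate 3 and 0.0381 without CD11b- replicate 4, with 0.0381 to 0.457 over the alternatives).

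Thymidylate genes were lower as well. Tyms, thymidylate synthase, was 2.53-fold lower at 234 ± 26.2 CPM in CD11b+, against 605 ± 30.1 in CD11b- (adjusted p = 5.32e-05). Tk1, the cytosolic thymidine kinase of dividing cells, was at 161, 166, 177 and 193 CPM in CD11b+, against 305, 391, 397 and 390.1 CPM in CD11b-, so it was 2.08-fold lower (adjusted p = 0.000442). Its mitochondrial counterpart Tk2 was at 66.0, 44.8, 36.7 and 49.5 CPM in CD11b+, against 22.7, 20.3, 50.3 and 29.9 CPM in CD11b-, with CD11b- replicate 3 among the CD11b+ values (log2 0.69, adjusted p = 0.188; 0.0200 without CD11b- replicate 3, and 0.0200 to 0.611 over the alternatives). The ratio of Tk1 to Tk2 was 2.44, 3.69, 4.81 and 3.90 in CD11b+ and 13.4, 19.2, 7.90 and 13 in CD11b-, without overlap. Its mean log2 difference was -1.82 (exact permutation p = 0.0286, the smallest possible, and 0.0571 adjusted over the 4 ratios; 0.0381 without CD11b- replicate 4, and 0.0381 to 0.133 over the alternatives). Here too the unadjusted p stayed the smallest possible under each alternative, so the range follows from the number of splits and the other ratios. Dut, which clears dUTP, had the highest fold change of this group, at 70.0, 57.8, 77.1 and 83.0 CPM in CD11b+, against 87.5, 75.7, 95.3 and 102 CPM in CD11b-. The groups overlap, and Dut was not called (log2 -0.29, 95% interval -0.69 to 0.10, adjusted p = 0.266).

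**Figure D4:**
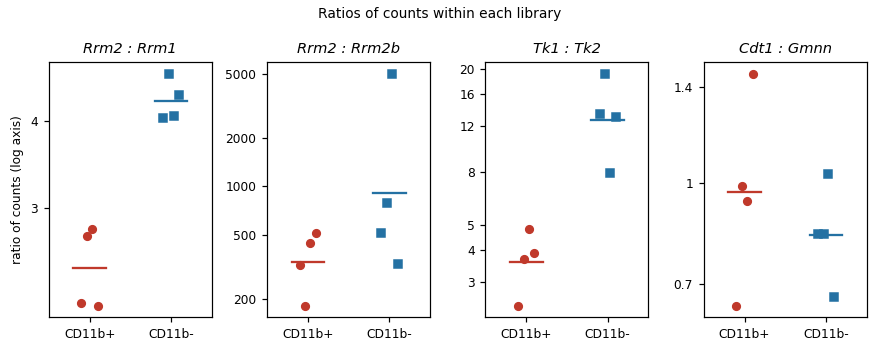
Ratio of counts of 2 genes within each library, on logarithmic axes, for the 4 pairs tested. Red circles are CD11b+ libraries, blue squares CD11b- libraries, and lines are geometric means (n = 4 each). The sorts stand apart for Rrm2 to Rrm1 (2.17 to 2.80 against 4.04 to 4.68) and for Tk1 to Tk2 (2.44 to 4.81 against 7.90 to 19.2), and overlap for the other 2.

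Of 26 other genes of nucleotide metabolism 5 were lower and 21 not called, with a median log2 fold change of -0.23. The share called lower, 19.2%, is near the 15.0% of all tested genes. edgeR called none higher (1 without any one of CD11b+ replicate 2 or CD11b- replicates 1 to 4), 4 were higher at an unadjusted p of 0.05, and DESeq2 called 2 and limma 1. Dck, deoxycytidine kinase of the salvage pathway, fell most, at 119.8 ± 22.5 CPM in CD11b+, against 556 ± 125 in CD11b- (log2 -2.17, adjusted p = 3e-05). Shmt2, a mitochondrial enzyme of one-carbon supply, was lower at 68.0 ± 8.86 and 146 ± 14.7 CPM (log2 -1.05, adjusted p = 0.000529). The other called genes were Dguok, Mthfd2 and Paics (log2 -0.77, -0.68 and -0.54, adjusted p = 0.0292, 0.0207 and 0.0273). The Dguok call was lost without any one of CD11b+ replicates 1 to 4 or CD11b- replicates 1 or 3 (adjusted p from 0.0577 to 0.0851). The Mthfd2 call was lost without CD11b+ replicates 1, 2 or 4 or CD11b- replicates 1 or 2 (0.0548 to 0.0744), and the Paics call without CD11b+ replicates 1, 2 or 3 or CD11b- replicates 1 or 4 (0.0537 to 0.0878). Accordingly 2 genes were called lower without CD11b- replicate 1 or either of CD11b+ replicates 1 and 2, and 3 without CD11b+ replicate 3. Without the Mpo pair the calls of Mthfd2 (adjusted p = 0.182) and Paics (0.0854) were lost. Dguok lost its call without the filter (0.0609) and with the replicate number as a block (0.0819). Over all alternatives adjusted p was 0.00345 to 0.0851 for Dguok, 0.00408 to 0.182 for Mthfd2 and 0.00699 to 0.0878 for Paics. Impdh1, of guanine nucleotide synthesis, had the highest fold change at 57.5 ± 6.25 and 26.8 ± 17.5 CPM (log2 1.15, adjusted p = 0.0922; 0.0484 without CD11b- replicate 2, and 0.0321 to 0.184 over all alternatives). Dtymk, which encodes thymidylate kinase, was at 223 ± 17.3 CPM in CD11b+, against 214 ± 41.6 in CD11b-, and was not called (log2 0.09, adjusted p = 0.771).

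Chromatin assembly genes fell in 3 of 4 members, with a median log2 fold change of -0.55. Slbp, which binds the stem-loop of histone mRNAs and lets them be translated, was at 153, 154, 248 and 282 CPM in CD11b+, against 432, 430.3, 502 and 864 CPM in CD11b-. The groups do not overlap, both spread widely, and CD11b- replicate 4 stands high (2.59-fold lower, log2 -1.37, SE 0.29, adjusted p = 0.00485). The subunits of the histone chaperone CAF-1 differed in call, and the difference between their fold changes was not tested. Chaf1b was 1.46-fold lower at 144 ± 10.6 and 216 ± 36.3 CPM (adjusted p = 0.0182), a call lost without CD11b+ replicates 1, 2 or 3 or CD11b- replicate 2 (adjusted p from 0.0508 to 0.0607; 0.00177 to 0.0607 over all alternatives). Chaf1a, the large subunit, was at 81.7, 109, 70.6 and 69.2 CPM in CD11b+, against 77.1, 92.3, 86.3 and 94.2 CPM in CD11b-. The CD11b- libraries lie inside the CD11b+ range (log2 -0.04, 95% interval -0.48 to 0.39, adjusted p = 0.909), and 4648 exon bases of Chaf1a overlap Ubxn6 on the opposite strand. Uhrf1, which helps carry DNA methylation onto the new strand, was 1.47-fold lower at 194 ± 40.4 and 295 ± 19.6 CPM (adjusted p = 0.0413). That call was lost without CD11b+ replicates 1, 3 or 4 or CD11b- replicates 2, 3 or 4 (adjusted p from 0.0563 to 0.106). It was also lost without the Mpo pair (0.0784), without the filter (0.0635) and with the replicate number as a block (0.0745). Its adjusted p ranged from 0.0125 to 0.106 over all alternatives.

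Of 17 other genes of chromatin replication 9 were lower, 2 higher and 6 not called, with a median log2 fold change of -0.66. The share called lower was 52.9%, against 15.0% of all tested genes, of which 14.6% were higher. The cohesin acetyltransferase gene Esco2 was lowest, at 60.3 ± 17.5 CPM in CD11b+, against 223 ± 29.0 in CD11b- (log2 -1.85, adjusted p = 0.000185). Cdca7, which recruits the remodeller encoded by Hells, was higher at 305 ± 31.8 and 127 ± 24.3 CPM (log2 1.32, adjusted p = 0.000138). Hells was higher too, at 146 ± 26.6 and 98.1 ± 19.6 CPM (log2 0.62, adjusted p = 0.0317), a call lost without CD11b+ replicates 1, 2 or 4 or CD11b- replicates 1, 3 or 4 (0.0503 to 0.0838 without it, and 0.0105 to 0.0838 over all alternatives), which leaves 1 gene higher. Dnmt1, the methyltransferase that UHRF1 guides, was at 290.1 ± 75.1 and 279 ± 53.9 CPM (log2 0.11, adjusted p = 0.757).

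E2F and RB family genes, which control the transcription of many members, were lower for 9 of 19 and higher for 1, with a median log2 fold change of -0.82. The share called lower was 47.4%, against 15.0% of all tested genes, of which 14.6% were higher. The dimerization partner gene Tfdp2 was lowest, at 45 ± 8.09 CPM in CD11b+, against 514 ± 79.6 in CD11b- (log2 -3.49, adjusted p = 3.68e-06). Its paralog Tfdp1 was the 1 gene higher, at 575 ± 58.7 and 200.4 ± 19.7 CPM (log2 1.56, adjusted p = 2.2e-05). Of the 8 tested E2f genes 3 were lower, E2f4 at 136 ± 19.6 CPM in CD11b+, against 959 ± 124 in CD11b- (log2 -2.79), E2f2 at 50.8 ± 12 and 292 ± 58.2 CPM (log2 -2.48) and E2f8 at 89.5 ± 21.4 and 223 ± 39.5 CPM (log2 -1.28), with adjusted p = 5.67e-06, 2.37e-05 and 0.00197. The other 5 were not called. Among them E2f1 was at 89.7 ± 18.0 and 115 ± 23.3 CPM (log2 -0.33, adjusted p = 0.326).

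Mitosis genes, the neighbours of S phase in the cell cycle, were lower for 24 of 25, with a median log2 fold change of -1.65, against 26 of 45 and -0.69 for the replication genes. The share of mitosis genes called lower was 96%, against 15.0% of all tested genes. Cenpf was lowest at log2 -2.72 (adjusted p = 7.31e-06). Ttk was not called (log2 -0.57, adjusted p = 0.1; 0.0231 without CD11b- replicate 4, and 0.0231 to 0.359 over all alternatives). Summed mitosis transcripts were 4693 to 5537 CPM in CD11b+ and 15238 to 17881 CPM in CD11b-. These lists were set side by side without a test of their difference.

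**Figure D5:**
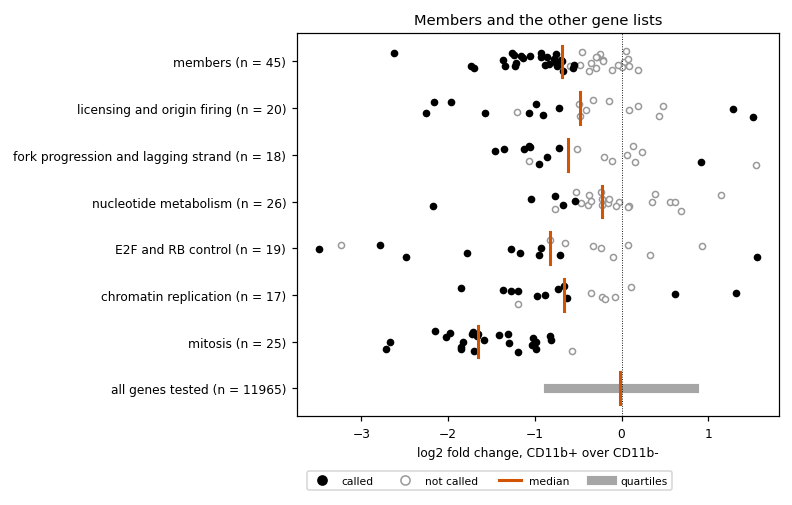
Log2 fold changes, CD11b+ over CD11b-, of the 45 members, of the genes of 6 other lists and, as a bar between the quartiles, of all 11965 tested genes. Filled points were called, open points were not, and orange lines are medians. The medians run from -1.65 for mitosis and -0.82 for E2F and RB genes to -0.23 for nucleotide metabolism, with -0.69 for the members and -0.01 for all genes.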

How the data were processed

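The authors deposited whole-number counts per gene symbol for each library, under names that say FPKM, and CPM for all 8 libraries. Counts over library totals gave the deposited CPM back within 5e-04. The submitters' processing notes list TopHat2, HTSeq 0.10.0, DESeq2 and build mm9 without their roles. The annotation and the strand setting are not given in the sources used. Of 18817 rows 27 carry numbers in place of a symbol (0.205% to 0.514% of counts) and were left out.

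Counts were tested with edgeR 4.0.16 in R 4.3.3 (TMM scaling, filterByExpr with a minimum count of 10 and total of 15, quasi-likelihood test, Benjamini-Hochberg 0.05, prior count 0.125, no covariate). Standard errors were worked back from the F statistic, and intervals are 95%. The p-values measure the spread between libraries that the design text calls biological replicates. Levels are deposited CPM. Ratios were tested by exact permutation. Exon lengths and overlaps by symbol came from GENCODE M21, which is of another build: 16 members share exon bases with another gene, 14 of them on the opposite strand (Gins2 shares 2758 with Gse1, Fen1 shares 1909 with Gm10143), and Pcna and Tyms have pseudogene copies, so these counts are less certain. Pseudogenes were searched by the member's own symbol only, so copies of other members under other names would be missed. No pair of replicates was alike within sampling noise (chi-square over degrees of freedom 125 to 217).

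Alternatives were DESeq2 1.42.0, RLE factors, no scaling, no filter, a stricter one (4 libraries at 10 CPM or more), limma 3.58.1 on log2(CPM + 1), the replicate number as a block, and leaving out libraries. Values per library are given for the members with the lowest and highest fold change in each role and for the genes of the ratios. Of the other lists the lowest and highest genes are named, as are all called genes of a direction with 5 or fewer. Cdk2, Cdc7, Dbf4, Rnaseh2a, Dtymk, Dnmt1, E2f1, E2f2, E2f4, E2f8 and the cell type markers printed singly were named after their values were seen. The members, lists and tests were chosen with earlier results of these data known.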

Additional observations from a re-analysis of the deposited data

Results flagged for a closer look

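In 4 of 98 sets of 4 values checked, 1 library lay far from the others of its sort by Dixon's test at 95%, which by chance marks about 1 set in 20. Cdc6 was at 1212 CPM in CD11b- replicate 4, against 735 to 815 CPM in the other CD11b- libraries. Slbp was at 864 CPM in the same library, against 430.3 to 502 CPM. Tk1 was at 305 CPM in CD11b- replicate 1, against 390.1 to 397 CPM. The ratio of Rrm2 to Rrm2b counts was 5026 in CD11b- replicate 3, against 328 to 793, with Rrm2b at 1.01 CPM there. Cdc6, Slbp and Tk1 were called lower in CD11b+ under all 16 alternatives, those that leave out these libraries included.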

How the results depend on the processing

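Of the 26 members called lower, 21 kept the call under all 16 alternatives and 5 lost it under at least 1 (Mcm10, Gins1, Pole, Chaf1b and Uhrf1). Of the 19 not called, 1 (Prim1) was called under some, and no call changed direction. The number of members called lower was 22 to 27 over the alternatives that keep all libraries or omit the Mpo pair (CD11b- replicates 1 and 2, the highest in Mpo of their sort), and 21 to 25 with 1 library left out. No alternative called a member higher. Without scaling factors the median of all genes moved by -0.05, and 41 in place of 39 members had a negative log2 fold change.

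With 1 library left out the calls over all genes ranged from 3035 to 3418 (3549 with all). Calls ranged from 0 to 1 higher and 2 to 4 lower for nucleotide metabolism, 1 to 2 higher for fork progression and 1 to 2 higher for chromatin replication. Nucleotide metabolism had 2 genes higher by DESeq2, 1 by limma and 1 with the replicate block, and 3 lower without the Mpo pair, where E2F and RB control had 2 higher. Chromatin replication had 1 higher with the replicate block. The cause of these moves was not tested. Log2 ratio differences ranged from -0.87 to -0.74 for Rrm2 to Rrm1, -1.9 to -0.59 for Rrm2 to Rrm2b, -2.06 to -1.63 for Tk1 to Tk2 and 0.02 to 0.42 for Cdt1 to Gmnn with 1 library left out.

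Replicate numbers did not visibly pair the libraries: deviations of same-numbered libraries correlated at 0.003 to 0.043, and not every library correlated best with its own number. Such small correlations cannot exclude that same-numbered libraries share animals. With the number as a block 3195 genes and 23 members were called. No member had under 273 counts in a library, but amplified reads without molecular identifiers are not independent molecules, so this count does not bound the sampling error.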

Other observations

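Libraries of one sort differed in how high their replication genes stood. CD11b- replicate 4 held the highest CPM of its sort for 20 of the 45 members and the lowest for 3, and CD11b+ replicate 4 held the highest for 25 and the lowest for 6. With TMM-scaled values these counts were 16 and 4 for CD11b- replicate 4 and 22 and 6 for CD11b+ replicate 4. CD11b- replicate 4 also had the lowest Mpo of its sort, at 412 CPM, against 5803, 3948 and 1449 CPM in CD11b- replicates 1 to 3. CD11b+ replicate 4 had the highest Mpo of its sort, at 54199.8 CPM, against 36445 to 41392 CPM in the other CD11b+ libraries. These orders were noticed in the data and were not tested.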
